A study of Mus musculus with 23 samples.

Results

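MEHP and DINCH were compared directly in TM4 cells, with 4 arrays of each compound and no vehicle array in the test. The members are the arrays that the labels give as MEHP replicates 1 to 4 and DINCH replicates 1 to 4, 8 of the 23 arrays of the series. TM4 is an immortalized Sertoli cell line of mouse testis, and all cultures of a group were of this 1 line. MEHP cultures received 100 μM MEHP and DINCH cultures 100 μM DINCH for 48 hr, so that dose and time were matched, and both held the 1% DMSO in which the compounds were dissolved. The control cultures received 1% DMSO alone for the same time, and their 4 arrays are used below for levels only. The series describes its replicates as biological, without saying whether they came from separate passages or days. The study looked for replacements of the plasticizer DEHP by their effect on gene expression in Sertoli cells. Only this pair of compounds was compared here.

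MEHP is the monoester that the body forms from DEHP, an aromatic phthalate with 1 branched ester chain and a free carboxylic acid. DINCH is a commercial substitute, a diester of isononyl alcohols on a saturated cyclohexane ring. Fatty acids and compounds that resemble them activate the PPAR nuclear receptors, which switch on genes for lipid storage, fatty acid import into mitochondria and fatty acid oxidation, and MEHP is a known PPAR ligand. Type I interferons act through transcription factors, STAT2 and IRF9 among them, which bind a promoter element with repeated GAAA and switch on antiviral genes such as the Ifit, Oas and Gbp families. Sertoli cells feed and shelter the germ cells of the testis, and they can mount an interferon response to virus.

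RNA was labelled with Cy3 and hybridized to 1-colour Agilent mouse arrays, 1 array per culture. The level of a gene is the log2 of its processed spot intensity relative to the 75th percentile of the same array, so a level of 0 equals that percentile, and a difference is the mean of the 4 MEHP arrays minus the mean of the 4 DINCH arrays. The 75th percentile itself was an intensity of 237 to 327 on the MEHP arrays and 205 to 293 on the DINCH arrays. Between 45.2% and 51.1% of spots on the MEHP arrays and between 43.4% and 52.2% on the DINCH arrays were well above background, and no spot was saturated. Pearson's r over tested probes was 0.994 to 0.997 between MEHP arrays, 0.991 to 0.995 between DINCH arrays and 0.988 to 0.996 between the compounds. The scanner's extraction software had marked a quality measure out of range on MEHP array 3 and on DINCH arrays 1 and 2. The 8 arrays lay on 3 slides that each held both compounds. The last number of the slide position was 1 or 3 for both compounds and 2 or 4 for the DMSO arrays. For DMSO levels, this number and treatment therefore cannot be told apart. MEHP array 1 and DINCH array 1 had the same slide and number, so the number does not give the whole position. The rest of the position was not examined for MEHP and DINCH.

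Interferon-induced genes had more called members than any other list examined, so the 250 bases before the start of 5 interferon-induced genes are printed here from RefSeq (build GRCm38.p6), 5′ to 3′ on the gene's own strand, with matches to GAAANNGAAA or its reverse complement in capitals. Ifit3, Ifit1, Bst2 and Rsad2 were called higher with DINCH, and Isg15 was not called although its promoter holds 3 overlapping matches.
Ifit3, chr19:34583279-34583528, + strand: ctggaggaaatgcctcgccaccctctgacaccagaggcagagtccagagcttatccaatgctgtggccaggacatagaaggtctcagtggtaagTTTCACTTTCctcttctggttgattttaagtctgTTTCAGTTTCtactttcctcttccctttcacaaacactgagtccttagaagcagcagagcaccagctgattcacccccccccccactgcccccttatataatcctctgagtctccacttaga
Ifit1, chr19:34640639-34640888, + strand: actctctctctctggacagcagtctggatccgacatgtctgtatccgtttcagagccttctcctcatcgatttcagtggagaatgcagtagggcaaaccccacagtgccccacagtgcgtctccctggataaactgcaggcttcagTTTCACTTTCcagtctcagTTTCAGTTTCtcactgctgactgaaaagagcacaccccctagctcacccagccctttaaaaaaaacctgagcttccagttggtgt
Bst2, chr8:71537473-71537722, - strand: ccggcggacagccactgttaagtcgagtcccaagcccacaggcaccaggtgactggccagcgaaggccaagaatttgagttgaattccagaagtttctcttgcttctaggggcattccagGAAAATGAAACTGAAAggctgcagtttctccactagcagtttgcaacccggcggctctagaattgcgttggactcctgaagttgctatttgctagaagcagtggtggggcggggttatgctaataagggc
Rsad2, chr12:26456453-26456702, - strand: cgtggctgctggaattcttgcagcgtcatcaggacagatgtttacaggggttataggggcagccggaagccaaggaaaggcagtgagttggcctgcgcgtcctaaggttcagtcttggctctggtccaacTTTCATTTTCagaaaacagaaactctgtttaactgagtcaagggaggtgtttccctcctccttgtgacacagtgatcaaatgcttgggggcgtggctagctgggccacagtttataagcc
Isg15, chr4:156200819-156201068, - strand: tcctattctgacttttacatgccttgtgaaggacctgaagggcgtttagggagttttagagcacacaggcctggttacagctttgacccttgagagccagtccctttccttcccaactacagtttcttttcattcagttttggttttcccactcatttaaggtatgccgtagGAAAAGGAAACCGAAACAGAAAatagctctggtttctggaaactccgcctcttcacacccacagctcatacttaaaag

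The matches in Ifit3 ended 146 and 112 bases before the gene's start, those in Ifit1 94 and 75, those in Bst2, which overlap, 120 and 114, the single match in Rsad2 110, and those in Isg15 68, 62 and 56. Over all 32851 mouse promoters of this length, 978 (2.98%) held the motif on either strand. Counted by gene, as for the lists below, 936 of 27025 genes (3.46%) held it. Of the 20 interferon-induced genes called in the comparison, 14 had a promoter in the table and 6 of these (42.9%) held it, namely Bst2, Gbp3, Ifit1, Ifit3, Igtp and Rsad2. Of the 8 that were tested and not called, 6 had a promoter and 4 (66.7%) held it, so the motif did not sort called from not called members. Xaf1, one of the genes with the largest differences, had no match within its window at chr11:72301379-72301628. The direct repeat AGGTCANAGGTCA, a form of the PPAR element, was present in 11 of the 32851 promoters (0.0335%) and in none of the promoters found for 6 called and 16 not called PPAR targets, Pdk4 included. A match is a run of letters and not a shown binding site.

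Of 11836 named genes tested, 284 were called (2.4%), which required a Benjamini-Hochberg adjusted p below 0.05 in limma and a difference of more than 1.5-fold on at least 1 probe. They divided almost evenly, with 144 higher with MEHP (1.22% of the genes tested) and 140 higher with DINCH (1.18%), and no gene was called in both directions. Differences over 2-fold were seen in 85 genes, 32 higher with MEHP and 53 higher with DINCH. At the level of probes 374 of 23674 were called (1.58%), with a median of 1.74-fold, and 69 of these probes had no gene name. An unadjusted p below 0.05 in limma was found for 4479 of the 23674. The median difference over all genes tested was -0.01, and 48.1% of them lay above 0. The MEHP and DINCH arrays did not overlap for 2025 of the genes tested (17.1%), including all 247 genes that were called on their brightest probe. The RNA came from whole cultures, so fewer cells of a type and less RNA per cell cannot be told apart in any of these values.

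The count of called genes moved with single arrays more than with any normalization tried. It was 132 without MEHP array 1, 83 without MEHP array 2, 143 without MEHP array 3, 121 without MEHP array 4, 177 without DINCH array 1, 160 without DINCH array 4 and 307 without DINCH array 3. Higher with MEHP were 29 and higher with DINCH 54 of the genes called without MEHP array 2. With the slide as a block, 229 genes were called. Not every gene described below was followed through the settings. Of those followed, the block ended the calls of Atp6v0a4, 2810429I04Rik, Angptl7, Hsd17b7, Etv4, Cdc6, Mcm10, Sesn2, Cth, Ddit4, Col11a1, Smad6, Id1, Slc25a20, Plin2 and Car6. Their adjusted p-values in limma then ran from 0.0508 for Hsd17b7 to 0.0912 for Angptl7. The block also ended the call of Atf3, whose difference of 0.58 then fell short of 1.5-fold. Dim probes were slightly unequal between the compounds. For the 23464 probes that were above background on none of the 8 arrays, the median level of each array was averaged within each compound. These averages differed by -0.27 (MEHP minus DINCH), an offset toward lower levels with MEHP. The part of that offset in the differences of dim genes was not tested. Levels are given for many genes below, but some dim genes are described by their difference alone.

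**Figure D1:**
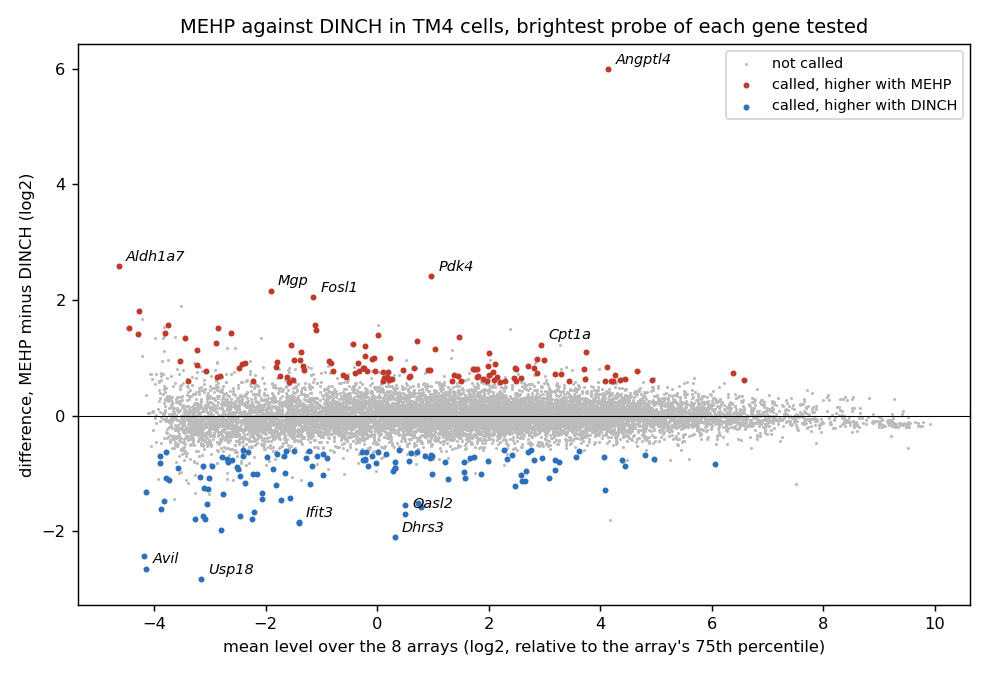
Each point is 1 of the genes tested, with the mean level of its brightest probe over the 8 arrays (log2 relative to the 75th percentile) on the horizontal axis and the MEHP minus DINCH difference (log2) on the vertical axis. Called genes are coloured by direction, and Angptl4, with a difference of 5.99, stands far above all other genes.

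Of 27 tested PPAR targets 7 were called, all higher with MEHP (1.22% of all genes tested). The largest difference was that of Angptl4, which encodes a secreted inhibitor of lipoprotein lipase and is a classic PPAR target. The MEHP arrays gave Angptl4 levels of 6.89, 7.27, 7.21 and 7.18, and the DINCH arrays 0.0046, 1.70, 1.85 and 1.03. The groups were far apart, and the DMSO arrays, at 3.21, 4.30, 4.25 and 3.71, lay between them without touching either. The difference was 5.99 ± 0.35 (SE, n = 4 and 4), or 63.6-fold, with an adjusted p of 0.000123 in limma and a 95% interval of 5.21 to 6.77. It was the largest difference among the called genes and was 7.07, 5.51 and 5.74 within slides 1, 2 and 3.

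Pdk4, a kinase that blocks pyruvate dehydrogenase and so turns mitochondria from glucose to fatty acids, had levels of 2.13, 2.18, 2.15 and 2.22 with MEHP and 0.34, -0.62, -0.71 and 0.02 with DINCH. All MEHP arrays lay close together and above every DINCH array. The difference was 2.42 ± 0.21 (5.33-fold, adjusted p = 0.00107 in limma). Unlike Angptl4, Pdk4 was higher on the DINCH arrays than on the DMSO arrays, which ranged from -1.54 to -1.30. Cpt1a, the enzyme that commits long-chain fatty acids to import into mitochondria, had levels of 3.40, 3.63, 3.53 and 3.63 with MEHP and 2.20, 2.18, 2.36 and 2.55 with DINCH. The groups did not overlap and the difference was 1.23 ± 0.11 (2.34-fold, adjusted p = 0.00107 in limma), with 1.32, 1.35 and 1.18 within the 3 slides.

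The 27 tested PPAR targets, of 36 listed, had a median difference of 0.38 beside -0.01 over all genes, and 20 lay above 0 and 7 below. The MEHP and DINCH arrays did not overlap for 14 of the 27, of which 13 were higher with MEHP, beside 17.1% of all genes tested. Ucp2, a mitochondrial carrier of the uncoupling protein family, differed by 0.81 (adjusted p = 0.0103 in limma). The other called members, chosen after their values were seen, were Ucp3 of the same family at 0.80, Slc25a20, which carries acylcarnitines across the inner mitochondrial membrane, at 0.64, and Plin2, which coats lipid droplets, at 0.60. Acaa2, a thiolase of fatty acid oxidation, had an adjusted p of 0.0238 but a difference of 0.51, under the 1.5-fold limit. Acot2 at 0.56 (adjusted p = 0.0517) and Fgf21 at 0.79 (adjusted p = 0.0735) did not pass the test, and Hadha, of the mitochondrial oxidation cycle, had a difference of 0.05. Fabp4 and Cd36 were among the 9 members too dim to be tested. The call of Ucp2 was lost without MEHP array 2, that of Slc25a20 without any 1 MEHP array or DINCH array 1 or 2, and that of Plin2 without any array but DINCH 1, with adjusted p-values of up to 0.0569, 0.0998 and 0.116 in limma. The receptors themselves, Ppara, Ppard and Pparg, were not called, with differences of -0.21 (95% interval -0.47 to 0.05), -0.01 (-0.22 to 0.19) and -0.17 (-0.43 to 0.08).

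**Figure D2:**
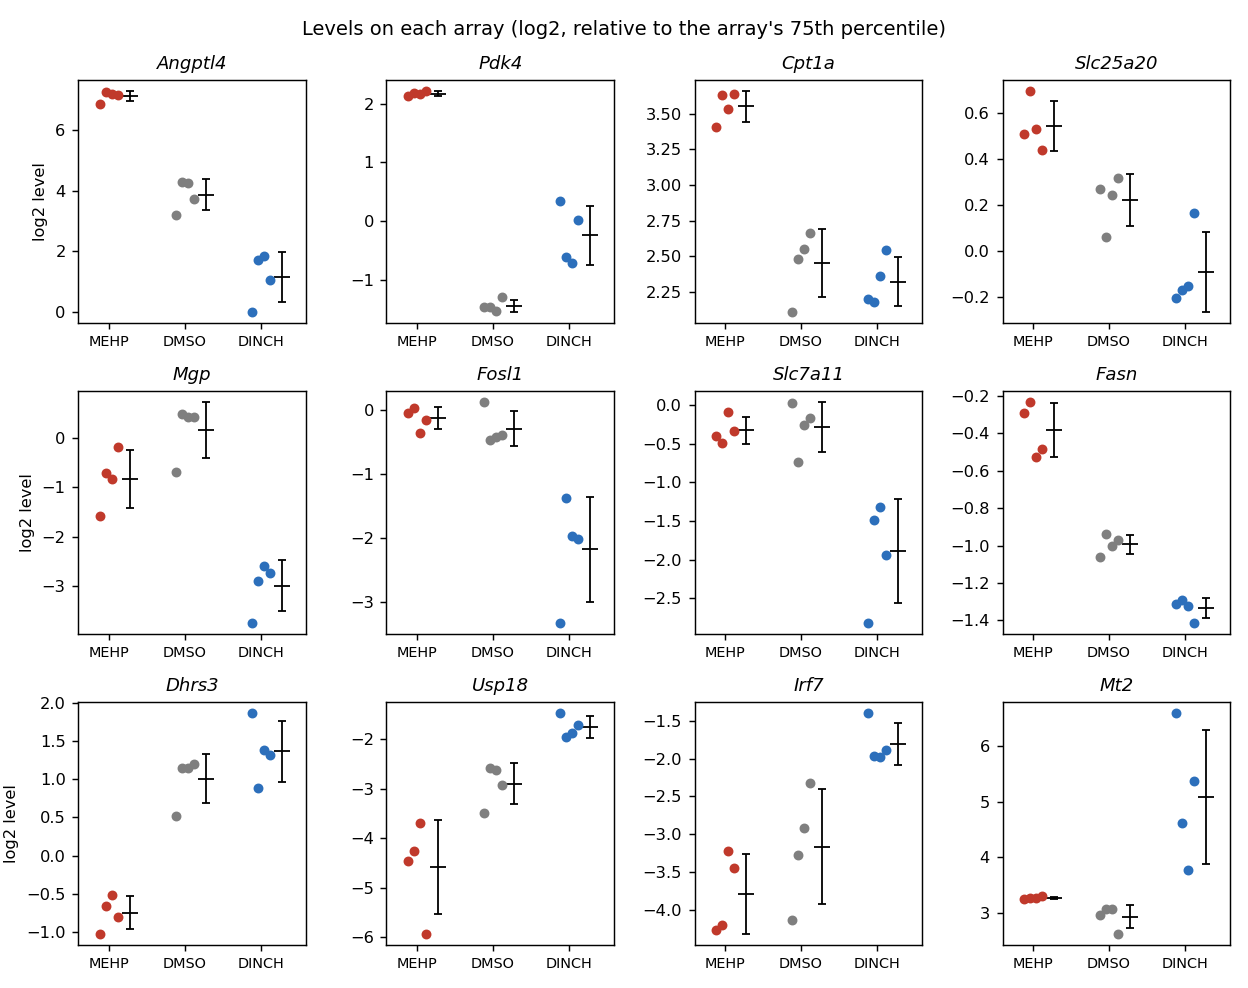
Level of 12 genes (log2 relative to the 75th percentile of the array, vertical axis) on each MEHP, DMSO and DINCH array, with 1 panel per gene. Points are arrays and bars give the mean ± SD (n = 4), and for Angptl4 the DMSO arrays lie between the compounds while for Pdk4 they lie below both.

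Of 15 tested genes of fatty acid synthesis and desaturation 3 were called, all higher with MEHP (1.22% of all genes tested). Fasn, the fatty acid synthase, had levels of -0.29, -0.23, -0.53 and -0.49 with MEHP and -1.31, -1.29, -1.32 and -1.41 with DINCH, and the DINCH arrays were tightly grouped below all MEHP arrays. Its difference was 0.95 ± 0.10 (1.93-fold, adjusted p = 0.00275 in limma). Acaca, which makes the malonyl-CoA that Fasn uses, differed by 0.85 (adjusted p = 0.00778), and Elovl6, which lengthens the products, by 0.82 (adjusted p = 0.0179). The median difference of the 15 was 0.31 and 13 lay above 0. The call of Elovl6 was lost without MEHP array 1, 2 or 4, with an adjusted p of up to 0.0783.

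Of 22 cholesterol biosynthesis enzymes, 21 had a difference above 0, with a median of 0.21, and 2 were called higher with MEHP. Among all genes tested, 48.1% lay above 0 and 1.22% were called higher with MEHP. Hsd17b7, which acts late in the sterol pathway, had levels of 1.66, 2.00, 1.73 and 1.54 with MEHP and 0.99, 1.14, 0.90 and 1.12 with DINCH, a difference of 0.70 (adjusted p = 0.0205 in limma). Without MEHP array 1, MEHP array 2 or DINCH array 1 no enzyme of the list was called, and Hsd17b7 was also lost without MEHP array 3, with an adjusted p of up to 0.0729. Without MEHP array 4 or DINCH array 2, 1 enzyme was called. The enzymes that the study measured by qPCR did not pass the test. Mvd differed by 0.23 (95% interval -0.09 to 0.54), Pmvk by 0.24 (-0.11 to 0.58) and Fdps by 0.21 (0.01 to 0.40). Their DMSO means of 3.06, 4.92 and 6.94 were below the means with MEHP (4.33, 6.19 and 7.74) and with DINCH (4.10, 5.96 and 7.53). None of the 14 tested genes of sterol sensing, uptake and efflux was called, with Srebf2, the master regulator of sterol synthesis, at 0.33 (95% interval 0.10 to 0.57).

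Interferon-induced genes were higher with DINCH, with more called members than any other list examined. Of 38 listed genes 35 were on the array under their names and 28 were tested, and 20 of the 28 were called higher with DINCH and none with MEHP, against 1.18% of all genes tested in that direction. The median difference of the 28 was -1.13, all 28 lay below 0, and for 24 every DINCH array lay above every MEHP array, beside 17.1% of all genes that did not overlap in either direction. The list was drawn up with knowledge from earlier results of these data that such genes differed, so its count is a description. Among the 25 members above background on all 8 arrays 18 were called, with a median of -1.11. Within slides 1, 2 and 3 the median of the 28 was -1.36, -1.08 and -0.99. Leaving out 1 array at a time gave 17 to 21 called members.

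Ifit3, which encodes an antiviral RNA-binding partner of Ifit1, had levels of -2.10, -2.48, -2.43 and -2.34 with MEHP and -0.19, -0.66, -0.62 and -0.47 with DINCH. The 4 DMSO arrays, at -2.13, -1.67, -1.46 and -1.62, reached from within the MEHP range to above it and stayed below all DINCH arrays. The difference was -1.85 ± 0.13 (3.61-fold, adjusted p = 0.000325 in limma). Xaf1, a proapoptotic interferon-induced protein, gave levels of -2.38, -2.13, -2.26 and -2.50 with MEHP and -0.12, -0.53, -0.64 and -0.61 with DINCH. Its groups were as clearly apart, with a difference of -1.84 ± 0.14 (3.59-fold, adjusted p = 0.000383).

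Usp18 encodes a protease that removes ISG15 from proteins and restrains the interferon receptor, and it was above background on only 1 of 4 MEHP arrays. Its levels were -4.46, -4.26, -3.69 and -5.93 with MEHP and -1.47, -1.96, -1.87 and -1.71 with DINCH, a measured difference of -2.84 (adjusted p = 0.00974 in limma) that rests on MEHP signals mostly at background and is no exact size. The MEHP values scattered widely and the DINCH values did not, and all DINCH arrays were higher. Irf7, the transcription factor that amplifies interferon production, was above background on 3 of 4 MEHP arrays, with levels of -4.27, -4.21, -3.23 and -3.44 beside -1.39, -1.96, -1.98 and -1.89 with DINCH. Again no array of one compound reached the range of the other, and the difference was -1.98 ± 0.25 (3.95-fold, adjusted p = 0.00702).

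Some called members were brighter, and those described next were chosen after their values were seen. Bst2, which encodes tetherin, the protein that holds budding virus on the cell surface, had levels of 1.97, 2.06, 2.14 and 1.96 with MEHP and 3.65, 2.94, 3.0 and 3.08 with DINCH. DINCH array 1 was highest and all DINCH arrays were above all MEHP arrays, with a difference of -1.14 ± 0.15 (2.20-fold, adjusted p = 0.00858 in limma). Ifit1, which binds foreign RNA, had levels of 0.82, 0.61, 0.70 and 0.70 with MEHP and 2.19, 1.85, 1.55 and 1.66 with DINCH, a difference of -1.11 ± 0.14 (adjusted p = 0.00702). Oasl2, of the oligoadenylate synthetase family, had levels of -0.44, -0.49, -0.41 and -0.05 with MEHP and 1.55, 1.25, 1.03 and 1.57 with DINCH, a difference of -1.70 (3.25-fold, adjusted p = 0.00107). In each of these 3 genes the DINCH arrays stood above every MEHP array. Rtp4, an interferon-induced inhibitor of viral replication, differed by -1.59, Ifi44 by -1.67 and Rsad2, which makes a chain-terminating nucleotide against viruses, by -1.34. Of these, Ifi44 and Rsad2 were dim, with means of -3.05 and -2.74 with MEHP and -1.38 and -1.40 with DINCH.

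Some members were not called. Isg15, the ubiquitin-like protein of this response, was bright on all arrays, with levels of 4.79, 4.54, 4.32 and 4.78 with MEHP and 5.34, 5.15, 4.91 and 4.74 with DINCH. The groups overlapped through DINCH array 4, and the difference of -0.43 (95% interval -0.78 to -0.08) had an adjusted p of 0.181 in limma. Lgals3bp differed by -0.06 and was not called. Stat2, part of the factor that activates the group, had an adjusted p of 0.0149 but a difference of -0.58, under the 1.5-fold limit, whereas its partner Irf9 was called at -0.69 (adjusted p = 0.0219). Outside the list, several of the 12 genes with the largest differences in this direction also belong to interferon-induced families, namely Ifit3b (-1.80, above background on 3 of 4 MEHP arrays), Phf11d (-1.79, adjusted p = 0.000208) and the GTPase Irgm2 (-1.73, above background on 2 of 4 MEHP arrays). Ifit3 and Ifit3b, Irgm2 and Igtp, and Oasl1 and Oasl2 are close relatives, and cross-hybridization between them was not tested.

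For 21 of the 28 tested members, and for 17 of the 20 called, the mean of the DMSO arrays lay between the means of MEHP and DINCH. Oasl2 had DMSO levels of 0.12, 0.13, 0.15 and 0.60, above all MEHP and below all DINCH arrays. These are levels only, and the slide position of the DMSO arrays cannot be told apart from the vehicle.

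**Figure D3:**
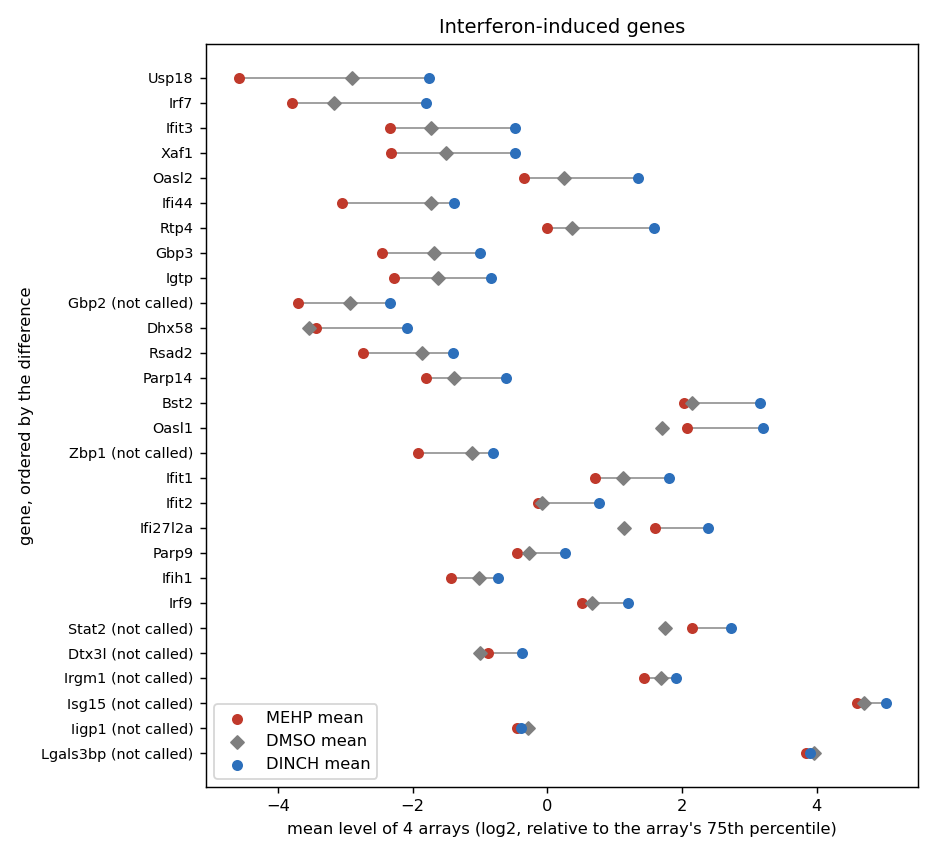
Mean level of the 28 tested interferon-induced genes (log2 relative to the 75th percentile, n = 4 arrays per point) with MEHP, DMSO and DINCH, ordered by the difference between the compounds. The DINCH mean is the higher of the 2 compounds in all 28 genes, and the DMSO mean lies between them in 21.

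Of 17 tested genes of MHC class I antigen presentation 2 were called, both higher with DINCH (1.18% of all genes tested). They were the immunoproteasome subunit Psmb8 at -0.66 (adjusted p = 0.0127 in limma) and the peptide-loading protein Tapbpl at -0.60 (adjusted p = 0.0179). The median of the list was -0.28 with 14 of 17 below 0. Psmb8 was not called without MEHP array 2 (adjusted p = 0.06), nor Tapbpl without MEHP array 1, 2 or 4 or DINCH array 1 (adjusted p of up to 0.0837). Of 14 tested secreted inflammatory genes 4 were called, all of them chemokines that attract leukocytes and all higher with DINCH (1.18% of all genes tested). Ccl5 had the largest difference, from levels of 3.47, 3.32, 3.32 and 3.62 with MEHP and 5.09, 4.54, 4.38 and 4.90 with DINCH. These groups did not overlap, and the difference was -1.30 ± 0.16 (2.46-fold, adjusted p = 0.00702). Ccl7 differed by -1.07 (adjusted p = 0.00153), Cxcl10 by -1.01 (adjusted p = 0.00708) and Ccl2 by -0.94 (adjusted p = 0.0113), and only Ccl2 lost its call when 1 array was left out (MEHP array 2, adjusted p = 0.0603). The DMSO means of Ccl7 at 0.97 and of Ccl2 at 2.62 were close to the MEHP arrays. The median over the 14 genes was -0.25. Of 6 macrophage markers only Csf1r and Cd14 were above background on all 8 arrays, and Ptprc, Adgre1, Cx3cr1 and Lyz2 were above it on none. Their summed linear level ranged from 4.65 to 5.59 with MEHP and from 4.76 to 6.03 with DINCH, which overlap.

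Of 19 tested genes whose transcription follows the ERK kinase cascade, 3 were called, all higher with MEHP (1.22% of all genes tested). Fosl1, a FOS-family subunit of the AP-1 transcription factor, had levels of -0.03, 0.04, -0.36 and -0.14 with MEHP and -3.33, -1.38, -1.98 and -2.02 with DINCH. DINCH array 1 was by far the lowest, but the other 3 were below all MEHP arrays too, and the DMSO arrays, from -0.46 to 0.13, covered the MEHP range. The difference was 2.05 ± 0.34 (4.15-fold, adjusted p = 0.0201 in limma), and within slides 1, 2 and 3 it was 3.33, 1.02 and 1.86. Etv4, an ETS transcription factor, differed by 0.80 (adjusted p = 0.0218) and Myc, the growth-promoting transcription factor, by 0.76 (adjusted p = 0.0275). The median difference over the 19 was 0.76, 16 of them lay above 0, and 12 did not overlap, beside 17.1% of all genes tested. The feedback inhibitor Spry1 at 1.57 (adjusted p = 0.102), Etv5 at 1.5 (adjusted p = 0.064) and Egr1 at 1.22 (adjusted p = 0.0731) had large differences that did not pass the test. Within slide 1, which holds DINCH array 1, the median was 1.11, and within slides 2 and 3 it was 0.41 and 0.41. None was called without MEHP array 1, 2 or 4, where the adjusted p of Fosl1 was up to 0.0827, Etv4 was also lost without DINCH array 1 or 4 and Myc without MEHP array 3 or DINCH array 2 or 4, and 4 members were called without DINCH array 3. The kinases and RAS proteins upstream showed no such shift, with 0 of 31 called in limma, 4 at an unadjusted p below 0.05 and a median of -0.0020. Over all probes tested, 4479 of 23674 had such an unadjusted p.

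Slc7a11, the cystine importer that supplies glutathione synthesis, had levels of -0.41, -0.49, -0.09 and -0.33 with MEHP and -2.81, -1.48, -1.32 and -1.94 with DINCH. The groups did not overlap and DINCH array 1 was again lowest. The difference was 1.56 ± 0.28 (2.95-fold, adjusted p = 0.0278 in limma), and the call was lost without any 1 of the MEHP arrays or DINCH array 4, with an adjusted p of up to 0.0891. Slc7a11 was 1 of 4 called of 22 genes of the ATF4 stress response, all higher with MEHP (1.22% of all genes tested). The others were Cth of cysteine synthesis at 0.64, the stress-induced mTOR inhibitor Ddit4 at 0.62 and the transcription factor Atf3 at 0.60. Of the 22, 19 lay above 0, beside 48.1% of all genes tested, with a median of 0.28. No member was called without any 1 of the MEHP arrays or DINCH array 4, 1 was called without DINCH array 1 or 2, and 6 were called without DINCH array 3. Of 23 NRF2 targets only Slc7a11 was called, with a median of 0.06. Hmox1, the heme oxygenase, differed by 0.40 (95% interval 0.05 to 0.75) and the quinone reductase Nqo1 by -0.29 (-0.59 to 0.01), and neither passed the test.

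Mgp encodes a matrix protein that inhibits calcification. Its levels were -1.59, -0.72, -0.84 and -0.18 with MEHP and -3.75, -2.90, -2.59 and -2.75 with DINCH, and the DMSO arrays, at -0.70, 0.49, 0.42 and 0.43, overlapped the MEHP range and reached above it. All MEHP arrays were above all DINCH arrays, with a difference of 2.16 ± 0.32 (4.48-fold, adjusted p = 0.0121 in limma) and 2.59, 2.06 and 2.49 within the 3 slides. Without MEHP array 2 the adjusted p was 0.06. Of 22 tested collagens and matrix proteoglycans Mgp was the only one called higher with MEHP (1.22% of all genes tested). The fibrillar collagen Col11a1 at -0.63 and the proteoglycan Omd at -1.0 were called higher with DINCH (1.18% of all genes tested). The call of Omd was lost without MEHP array 4 (adjusted p = 0.0531) and that of Col11a1 without any array but DINCH 1 (adjusted p of up to 0.117). The median of the list was 0.06.

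In retinoid metabolism 1 of 8 tested genes, Dhrs3, was called, higher with DINCH (1.18% of all genes tested). The list held 17 genes, and the rest were too dim to be tested. Dhrs3 reduces retinaldehyde back to retinol and is itself induced by retinoic acid. Its levels were -1.02, -0.66, -0.51 and -0.80 with MEHP and 1.86, 0.89, 1.39 and 1.32 with DINCH. The DMSO arrays, at 0.53, 1.14, 1.15 and 1.20, lay above all MEHP arrays and reached into the DINCH range. The difference was -2.11 ± 0.19 (4.32-fold, adjusted p = 0.00133 in limma) and -2.70, -1.40 and -2.15 within the 3 slides. None of the other 7 tested genes of retinoic acid synthesis and response was called. Aldh1a1, a retinaldehyde dehydrogenase, differed by 0.52 (95% interval 0.12 to 0.92, adjusted p = 0.162). Its close relative Aldh1a7, which like Aldh1a1 lies on chromosome 19, was above background on all MEHP arrays, at -3.22, -3.19, -3.47 and -3.49, and on no DINCH array, at -5.70, -5.89, -6.26 and -5.86. It was at least 1.90-fold higher with MEHP (means of -3.34 and -5.93, adjusted p = 0.000123), where the limit is the lowest signal well above background on each DINCH array. Under normexp background correction its difference was 0.35 and it was not called. Cross-hybridization between these relatives was not tested.

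Metallothioneins bind zinc and cadmium and rise with free metal. Mt2 was uniform with MEHP, at 3.25, 3.27, 3.27 and 3.30, and scattered with DINCH, at 6.6, 4.63, 3.76 and 5.37. Every DINCH array was above every MEHP array, and the DMSO arrays (2.62 to 3.08) were below both. The difference of -1.82 (95% interval -2.89 to -0.74) did not pass the test, with an adjusted p of 0.0847 in limma. Mt1 had levels of 6.96, 6.86, 6.69 and 7.14 with MEHP, 8.93, 7.77, 7.30 and 8.41 with DINCH and a difference of -1.19 (95% interval -1.87 to -0.51, adjusted p = 0.0737). Without DINCH array 3, the lowest of the DINCH arrays for both, Mt2 and Mt1 were called, with adjusted p-values of 0.0305 and 0.0313. No member among the 14 tested metallothioneins and zinc transporters was called with all arrays, and the median was -0.06. In limma 3 had an unadjusted p below 0.05, beside 4479 of 23674 probes tested.

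Several dim genes had large differences. Higher with DINCH, Avil, an actin-severing protein of the villin family, was above background on no MEHP array, at -6.42, -6.17, -5.23 and -4.08, and on all DINCH arrays, at -2.65, -3.31, -2.89 and -2.43. It was at least 3.16-fold higher with DINCH (means of -5.48 and -2.82, adjusted p = 0.0219 in limma). Angptl7, a secreted relative of Angptl4, was at least 2.97-fold higher with DINCH by the same limit (means of -5.40 and -2.97, adjusted p = 0.0459), and this call was lost without any 1 of the 8 arrays. Over 21 alternative settings the smallest differences were -0.70 for Avil and -0.62 for Angptl7. Upk3bl (-1.80, above background on 3 of 4 MEHP arrays, adjusted p = 0.00313) and Plekhs1 (-1.74, adjusted p = 0.0177) completed the 12 genes with the largest differences in this direction. Avil and Plekhs1 each lost their call without 5 of the 8 arrays, MEHP 2, MEHP 3, DINCH 1 and DINCH 4 among them for both, with adjusted p-values of up to 0.0827 and 0.0723.

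Among the 12 genes with the largest differences in the other direction, Atp6v0a4, a subunit of the proton pump, was above background on all MEHP arrays, at -2.25, -3.36, -3.17 and -3.12, and on no DINCH array, at -5.04, -4.59, -4.58 and -3.98. It was at least 2.33-fold higher with MEHP (means of -2.97 and -4.55, adjusted p = 0.0237 in limma). D030028A08Rik was at least 1.84-fold higher (means of -3.37 and -5.18) and 2810429I04Rik at least 1.48-fold (means of -3.70 and -5.22), both also below background on all DINCH arrays. These limits hold for the main processing only. Over 21 alternative settings the lowest differences were 0.21 for Atp6v0a4, 0.16 for D030028A08Rik and -0.015 for 2810429I04Rik. None of these genes was called under normexp background correction. Ackr3, a scavenger receptor for the chemokine CXCL12, differed by 1.52 and was above background on 2 of 4 DINCH arrays. The adhesion protein Prtg differed by 1.43, above background on 3 of 4 DINCH arrays, and Lce1e of the cornified envelope family by 1.49. These 6 calls were lost when 1 of several arrays was left out. For each of the 6 MEHP array 2 was such an array, and over these omissions the adjusted p-values reached up to 0.0953. The other arrays were MEHP 1, 3 and 4 and DINCH 1 for D030028A08Rik, MEHP 3 and 4 and DINCH 1 and 2 for Atp6v0a4, MEHP 1, 3 and 4 and DINCH 1 and 4 for 2810429I04Rik, MEHP 1 for Ackr3, MEHP 1 and 3 and DINCH 1 and 4 for Lce1e, and MEHP 1 and 4 and DINCH 1 for Prtg.

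In the cell cycle, 32 of 36 DNA replication genes had a difference above 0, with a median of 0.24, and 2 were called higher with MEHP. Among all genes tested, 48.1% lay above 0 and 1.22% were called higher with MEHP. Cdc6, which loads the replicative helicase, differed by 0.77 (adjusted p = 0.0336 in limma) and the initiation factor Mcm10 by 0.59 (adjusted p = 0.046). Mcm10 lost its call without any 1 of the 8 arrays, and Cdc6 without any array but MEHP 4 or DINCH 2, with adjusted p-values of up to 0.116 and 0.118. None of 24 mitotic genes was called in limma, with a median of 0.09. In limma 1 had an unadjusted p below 0.05, beside 4479 of 23674 probes tested. Mki67, the proliferation marker, differed by 0.17 (95% interval -0.17 to 0.50) and the topoisomerase Top2a by -0.0085 (-0.22 to 0.20). Sesn2, a stress-induced inhibitor of mTOR signalling, was the only called gene of 17 tested p53 targets, at 0.59 (adjusted p = 0.0219), and the list had a median of 0.0053. Its call was lost without any 1 of the MEHP arrays or DINCH array 2 or 4 (adjusted p of up to 0.0874).

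Other lists held 1 or 2 called genes, beside 2.4% of all genes tested that were called in either direction. Acta2, smooth muscle actin, was called among 22 contractile genes. It had levels of 4.56, 4.64, 4.60 and 4.52 with MEHP and 5.11, 5.26, 5.36 and 5.62 with DINCH, so that all DINCH arrays were higher, with a difference of -0.76 (1.69-fold, adjusted p = 0.0142 in limma). Smad6, an inhibitor of BMP signalling, was called higher with DINCH (-0.78) and Id1, a BMP target, higher with MEHP (0.61) among 25 genes of the TGF-beta family. Dbp, a clock-controlled transcription factor, was called higher with DINCH (-1.08) and Nfil3, which represses the sites that Dbp activates, higher with MEHP (0.59) among 14 clock genes. Gstt1 was the only called of 17 glutathione transferases (-0.80), Efnb2, a ligand of Eph receptors, the only one of 15 ephrins and Eph receptors (0.99), and Txnip, a thioredoxin-binding protein that lowers glucose uptake, the only one of 24 glycolysis genes. Txnip was called through its second probe, while its brightest probe gave -0.77 (adjusted p = 0.0678). Acta2 lost its call without MEHP array 2 or 4 (adjusted p of up to 0.0625), Dbp without MEHP array 1, 2 or 3 (up to 0.0728) and Nfil3, Smad6, Id1, Efnb2 and Gstt1 without 5 to 7 of the 8 arrays, MEHP arrays 1 and 2 among them for each (up to 0.144). No glycolysis gene was called when any 1 array but DINCH 2 was left out.

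The study's own pathway genes were chosen by its authors on these arrays and are no independent evidence. Of the 10 named for MEHP, Cpt1a was called higher with MEHP and Dhrs3 higher with DINCH. Of the 57 named for DINCH, 5 were called higher with DINCH, namely Ccl5, Cxcl10, the protease inhibitor Serpinb1a (-1.16, adjusted p = 0.00702 in limma), Gstt1 and Arhgef4, beside 1.18% of all genes tested, and 2 higher with MEHP, Efnb2 and Ppp1r7, with a median of -0.20 over the 57. Ppp1r7 was called only on another probe, and its brightest probe differed by 0.02 (adjusted p = 0.916). Without MEHP array 1, 2 or 3 or DINCH array 1 or 4, 3 of the 57 were called higher with DINCH, and higher with MEHP were 0 without MEHP array 2, 3 or 4, 1 without MEHP array 1 or DINCH array 1, 2 or 4, and 4 without DINCH array 3. Of the genes it measured by qPCR, Angptl4 and Pdk4 were called. Egfr, the epidermal growth factor receptor, had an adjusted p of 0.042 but a difference of -0.41 (95% interval -0.61 to -0.22), under the 1.5-fold limit. Mras differed by -0.36 (-0.72 to 0.0030), Gsta4 by -0.18 (-0.51 to 0.16), Mapk12 by -0.17 (-0.43 to 0.09) and the reference gene Hprt by 0.18 (-0.06 to 0.41), and none of these passed the test. A p that misses the threshold does not show that the compounds act alike on these genes, and the intervals cover differences in either direction for most of them.

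**Figure D4:**
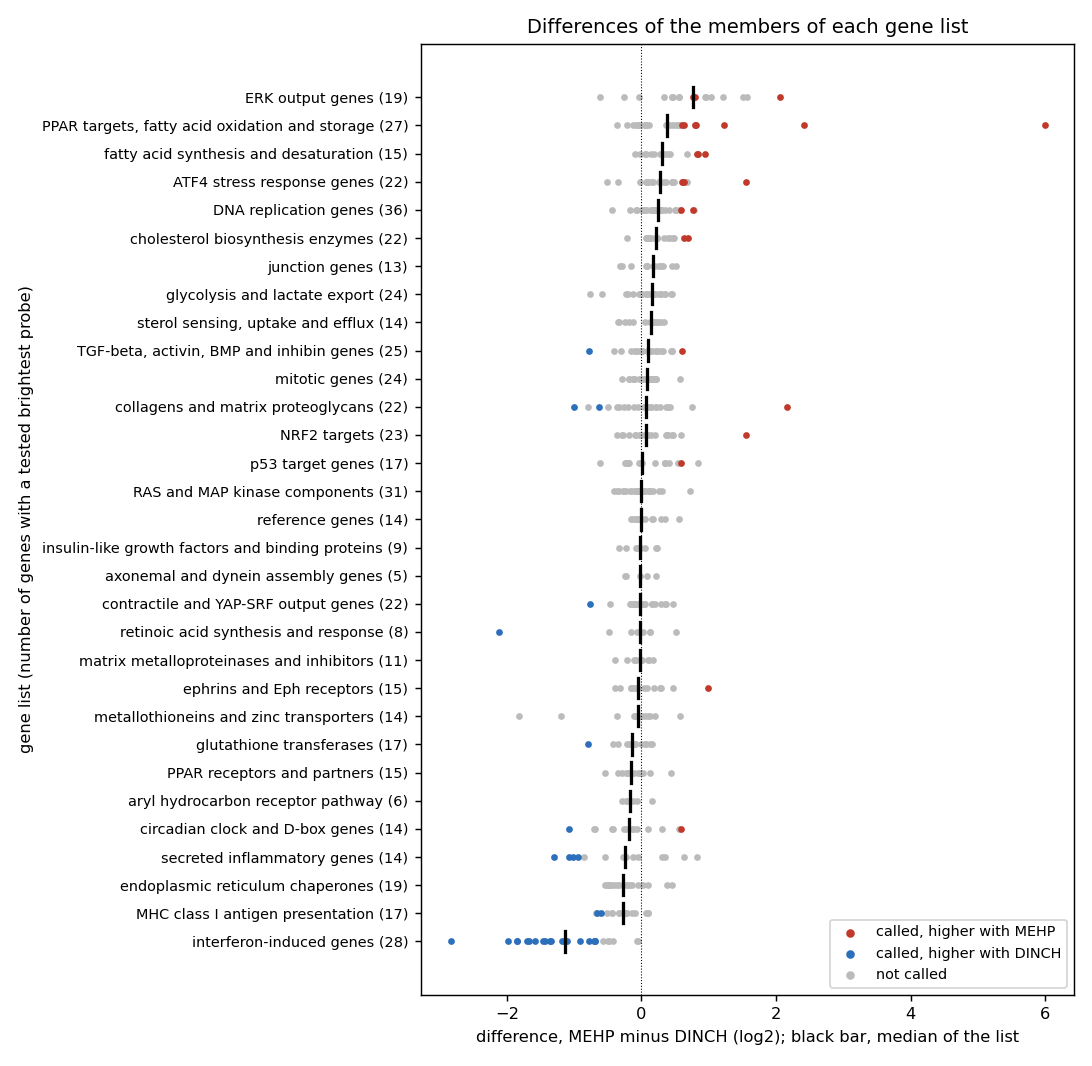
MEHP minus DINCH difference (log2, horizontal axis) of each tested gene in the gene lists (vertical axis), with a black bar at the median of each list and called genes in colour. The interferon-induced genes lie furthest to the left, with a median of -1.13, and the PPAR targets reach furthest to the right through Angptl4 at 5.99.

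No gene was called in limma among 15 PPAR receptors and partners (median -0.16, 5 at an unadjusted p below 0.05), 19 endoplasmic reticulum chaperones (-0.27, 12), 13 junction genes (0.17, 7), 11 matrix metalloproteinases and inhibitors (-0.03, 0), 9 insulin-like growth factor genes (-0.02, 1), 6 genes of the aryl hydrocarbon receptor pathway (-0.17, 1), 5 axonemal genes (-0.02, 0) and 14 reference genes (-0.01, 3). Over all probes tested, 4479 of 23674 had an unadjusted p below 0.05 in limma. Of the 19 chaperones 15 lay below 0. Hspa5, the chief chaperone of the endoplasmic reticulum, differed by -0.47 (95% interval -0.81 to -0.13, adjusted p = 0.144), with levels of 7.65, 7.56, 7.66 and 7.68 with MEHP and 8.55, 7.94, 7.79 and 8.15 with DINCH that did not overlap. Gja1, the gap junction protein of Sertoli cells, differed by 0.51 (0.00091 to 1.02), Timp1 by -0.0095 (-0.28 to 0.26), Igf1r by -0.07 (-0.31 to 0.16), Ahr by -0.12 (-0.43 to 0.18), Dnaaf3 by -0.25 (-0.59 to 0.10), Actb by -0.03 (-0.30 to 0.24) and Gapdh by -0.04 (-0.23 to 0.15).

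The DMSO arrays showed on which side of the vehicle each difference lay. Among 124 genes called higher with DINCH on their brightest probe, the DMSO mean was closer to the MEHP mean in 107 and lay between the compound means in 63. Among 123 genes called higher with MEHP it was closer to the MEHP mean in 91 and to the DINCH mean in 32, and lay between them in 74. Fosl1 and Ccl7 had DMSO levels like those with MEHP, Cpt1a (DMSO mean 2.45 ± 0.24, SD, n = 4) and Acaa2 (5.24) had DMSO levels like those with DINCH, and Angptl4 stood between the compounds. Position on the slide cannot be told apart from the vehicle in these levels.

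The labelled cell type was checked against 22 Sertoli markers. Above background on all 8 arrays were 9 of them (Vim, Gata4, Kitl, Inhbb, Dmrt1, Nr5a1, Dhh and Inha among them), while Wt1, Fshr, Cldn11, Krt18 and Trf were above it on none, so the cells lacked several markers that define Sertoli cells in the testis. Ptgds, a prostaglandin synthase of Sertoli cells, was the only marker called, higher with DINCH at -1.12 (adjusted p = 0.00641 in limma) and above background on 2 of 4 MEHP arrays. The summed linear level of the Sertoli markers was 224 to 255 with MEHP and 143 to 253 with DINCH. Vim was by far the brightest of them, at means of 7.77 and 7.52. The sum of 4 peritubular myoid markers was 24.5 to 26.6 with MEHP and 35.9 to 50.9 with DINCH, without overlap. Of these, Acta2 and Cnn1 were above background on all 8 arrays. The sum mainly follows Acta2, at means of 4.58 and 5.34, while Cnn1, at 0.73 and 0.58, was not higher with DINCH. The sum of 5 Leydig markers, where Cyp17a1 alone was above background on all arrays, was 9.14 to 13.3 and 13.3 to 21.5. That of 4 endothelial markers was 15.0 to 19.9 and 19.2 to 27.7, with Kdr (4.09 and 4.48) far brighter than Pecam1 (-3.26 and -3.04). The part of these in the results was not tested.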

How the data were processed

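TM4 RNA was labelled with Cy3 and hybridized to Agilent mouse arrays. The authors' extraction software made the deposited intensity values, which are linear, corrected for background and spatial trend, and unscaled between arrays. The authors also deposited log2 values, shifted to the 75th percentile and centred on each probe's median, which served as an alternative here. In the present work spots that the software marked as outliers were dropped, intensities under 1 were set to 1, and log2 values were expressed relative to the 75th percentile of non-control spots and averaged per probe.

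RefSeq accessions named 26582 of 55681 probes with 20145 symbols (table of GRCm38.p6). No probe positions are given because the array design used another build. Tested were the probes that all 4 arrays of MEHP, or all 4 of DINCH, showed well above background and not under the 20th percentile. MEHP was compared with DINCH in limma 3.58.1 (R 4.3.3, data.table, version 1.17.8) with no covariate and Benjamini-Hochberg adjustment over 23674 probes, 12 of which lacked a value on 1 or more arrays. Calls needed an adjusted p below 0.05 and over 1.5-fold. An exact two-sided permutation test of 4 arrays against 4 cannot give a p below 0.0286. Arrays have no read depth, and their number limits the precision.

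A gene's values are those of its brightest probe over the 23 arrays. The text names the 12 called genes with the largest differences and no overlap in each direction, the qPCR genes of the study, and for each list up to 4 called members or, with none called, defining members. Some list members are not reported here. Further genes were picked once their values had been seen. The members and lists were chosen with earlier results of these data known. At-least folds set the mean of the brighter group against a mean in which each array contributes its lowest signal well above background, or the probe's own signal where higher. They hold for the main processing alone. Motifs were searched on both strands of promoters, and Angptl4, Usp18 and Rtp4 had no entry.

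The alternatives were normalization by quantiles, normexp background correction with an offset of 50, and 2 other filters (none, or detection on a single array). Others were a block for slide, for the last number of the slide position or for replicate number, and a fit of all 6 groups. The rest were outlier spots included, brightest probes alone, a variance trend, the authors' log2 values, and each array left out. A simulation with the variance of the 8 arrays returned 93% of 200 genes changed by 1 log2 unit and 99.5% of those changed by 2, among 11830 genes. It also called 3 and 4 unchanged genes. Errors were drawn independently for each probe and array, without deviations shared across an array. These shares therefore do not measure recovery on the real arrays. Plots were made with matplotlib 3.10.9 (Python 3.11.15).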

Additional observations from a re-analysis of the deposited data

Results flagged for a closer look

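Among 194 sets of 4 arrays examined (many but not all of the genes named in the text, in each compound), 17 held 1 array that lay far from the other 3 by Dixon's criterion, which chance alone meets in about 1 of 20 sets. Some genes named in the text, such as Ucp3, Spry1 and Irf9, were not examined. MEHP array 1 held 5 of them, DINCH array 1 held 4 and DINCH array 3 held 3, and the rest were spread over MEHP arrays 2 and 3 and DINCH arrays 2 and 4.

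On MEHP array 1, Psmb8 had a level of -0.35 where the others had -0.13 to -0.11, Nqo1 0.60 (others 0.22 to 0.24), Mki67 4.97 (4.59 to 4.63), Igf1r 2.59 (others 2.42) and Wnt4 -4.18 (-4.72 to -4.64). On DINCH array 1, Irf7 had a level of -1.39 (-1.98 to -1.89), Tapbpl 0.90 (0.60 to 0.65), Col11a1 0.75 (1.1 to 1.16) and Gja1 -0.078 (0.88 to 1.07). For Gja1 this array alone lay near 0, and leaving out any 1 array gave differences of 0.25 to 0.63, none of them called in limma (adjusted p of at least 0.197). On DINCH array 3, Plekhs1 had a level of -2.19 (-1.43 to -1.36), Elovl6 2.09 (2.47 to 2.51) and Ifi44 -1.53 (-1.35 to -1.32).

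On MEHP array 3, Hmox1 had a level of 4.60 (4.86 to 4.90). Phf11d had a level of -2.85 on MEHP array 2 (-3.27 to -3.22) and of -1.49 on DINCH array 2 (-1.33 to -1.31). On DINCH array 4, Igf1r had a level of 2.28 (2.6 to 2.64) and Slc25a20 0.16 (-0.21 to -0.15). The called genes among these, Irf7, Phf11d, Plekhs1, Elovl6, Psmb8, Tapbpl, Col11a1, Ifi44, Slc25a20 and Wnt4, had no overlap between the compounds with the distant array included.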

How the results depend on the processing

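Of the settings tried, the filter on dim probes and the number of arrays moved the counts most. Without a filter 19 genes were called, 7 higher with MEHP and 12 higher with DINCH, and with detection on 1 array 88 were called, 32 and 56. These settings tested 55681 and 32217 probes, beside 23674, and the cause of the lower counts was not tested. Under normexp, 195 genes were called, 108 higher with MEHP and 87 higher with DINCH, and 2810429I04Rik had a difference of -0.015 in place of 1.52. The cause was not tested. Aldh1a7 was not called under normexp (0.35), nor were 15 other named genes, Ackr3, Prtg, Wnt4 and Gpnmb among them, and the interferon median was -0.72 with 19 members called, while ERK output genes had up to 8 called over all settings. Quantile normalization gave 274, of which 54.0% were higher with MEHP, beside 50.7% of the 284.

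Leaving out 1 array gave 83 to 307 called genes, 29 to 165 higher with MEHP and 54 to 142 higher with DINCH, with the lowest counts without MEHP array 2 and the highest without DINCH array 3. Without the 3 arrays that had a quality measure out of range, a setting added after seeing the data, 3 MEHP and 2 DINCH arrays remained and 16 genes were called, 5 higher with MEHP and 11 higher with DINCH. The interferon list then had 4 called and a median of -1.08, and the PPAR targets 2 and 0.27.

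Whether the replicate numbers pair the arrays could not be settled with 4 arrays of each compound. The deviations from the group mean correlated, within each number, at 0.26, -0.19, 0.06 and 0.16. Best correlation with the own number was seen for 2 of 4 MEHP and 1 of 4 DINCH arrays. With the replicate number as a block, which ended the calls of 20 named genes (Etv4, Hsd17b7 and Plin2 among them), 166 genes were called, 68 higher with MEHP and 98 with DINCH. Over all 21 alternatives Angptl4, Pdk4, Dhrs3, Ifit3, Xaf1, Phf11d, Ifi44 and Myom2 kept their calls. Signal over background limits the values of dim genes.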

Other observations

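Genes outside the lists with clear differences are given here, chosen after their values were seen. Higher with MEHP were Prickle1, a planar cell polarity protein, with levels of 2.20, 1.94, 2.00 and 2.44 beside 0.83, 0.71, 0.81 and 0.77 with DINCH, and Erc2, a scaffold protein of the active zone of synapses, with 0.73, 0.70, 0.75 and 0.66 beside -0.82, -0.61, -0.49 and -0.84. All MEHP arrays were above all DINCH arrays for both, with differences of 1.37 ± 0.12 (SE, adjusted p = 0.00101 in limma) and 1.40 ± 0.10 (adjusted p = 0.000358). Both kept their calls when any 1 array was left out. However, a second tested probe of Erc2, above background on every array of both compounds, differed by 0.08 (adjusted p = 0.686) and was not called.

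Higher with DINCH was Myom2, a structural protein of the sarcomere, with levels of 1.54, 1.28, 1.1 and 1.19 beside -0.25, -0.29, -0.20 and -0.35 with MEHP. The DMSO mean of -1.07 was below both compounds, and the difference between them was -1.55 ± 0.11 (2.92-fold, adjusted p = 0.000325 in limma). Car6, a secreted carbonic anhydrase, was higher with DINCH by a difference of -1.52 (adjusted p = 0.0386), its DMSO mean of 2.04 lay above both, and its call was lost with the slide as a block (adjusted p = 0.0815) and without MEHP array 1, 2 or 4 or DINCH array 1 or 4 (adjusted p of up to 0.131).

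Wnt6, a secreted signalling protein, was also called higher with DINCH and differed by -1.04 (adjusted p = 0.00702 in limma) and Wnt10a of the same family by -0.77 (adjusted p = 0.0296). Wnt4, at -1.48 (adjusted p = 0.00441), and Gpnmb, a glycoprotein of lysosomes and melanosomes, at -1.61 (adjusted p = 0.00189), were above background on 1 of 4 MEHP arrays each and on all DINCH arrays, so these measured differences rest on MEHP signals mostly at background, and neither gene was called under normexp.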
